A study of Mus musculus with 24 samples.

Results

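The genes described here are the interferon-inducible p200 cluster of mouse chromosome 1, which encodes the PYHIN proteins and includes Aim2. The 10 names listed for it, Aim2, Ifi202b, Ifi203, Ifi204, Ifi205, Ifi207, Ifi209, Ifi211, Mndal and Pyhin1, stand for 9 of the 21842 protein-coding genes with an annotated start site, because RefSeq gives Pyhin1 as a synonym of Ifi209. The genes were chosen by name, with no threshold on a value, but with earlier results from the same peak lists in view. The p-values below therefore place the members within a fit over all genes or all regions, and they are not independent evidence that the cluster stands out.

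PYHIN proteins are intracellular sensors and regulators whose genes are switched on by interferons. AIM2 binds double-stranded DNA in the cytosol and, through the adaptor ASC (encoded by Pycard), assembles an inflammasome that activates caspase-1. Macrophages exposed to lipopolysaccharide (LPS), the bacterial ligand of TLR4, make type I interferon, which acts through interferon-stimulated response elements (ISREs) in the promoters of such genes.

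The assay was ATAC-seq, which uses the Tn5 transposase to tag open chromatin with adapters, and the cells were bone marrow-derived macrophages cultured for 7 days from male mice of postnatal day 28. The inbred strains were C57BL6/J and BTBR (BTBR T+ Itpr3tf/J), with 4 biological replicates each (numbers 1, 4, 6 and 7 for C57BL6/J and 2, 3, 5 and 8 for BTBR), and each number, taken here as an animal, gave 1 library per treatment. The treatments were media alone, LPSx1 (media first, then 100 ng/ml LPS for 24 hours) and LPSx2 (100 ng/ml LPS for 4 hours, washing and overnight rest, then 100 ng/ml LPS for 24 hours). No genotype was manipulated, and all groups share the same culture and sequencing scheme of 4 lanes, each with 1 animal of either strain. The additional PCR cycles differed between libraries, from 5 to 13. In lane 3 BTBR animal 5 had 12 or 13, and C57BL6/J animal 6 had 5 in media, 10 with LPSx1 and 7 with LPSx2. The part of these cycles in the results was not tested.

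Of 24 peak lists, 22 were used: 3 media, 4 LPSx1 and 3 LPSx2 lists of C57BL6/J and 4 lists per treatment of BTBR. The media and LPSx2 lists of C57BL6/J animal 6 held 299 and 1877 merged peaks, none of them at a p200 gene, and were left out. The other lists held 11349 to 127242 peaks once overlapping ones were merged, and the longest, from BTBR animal 2, came from the same lane as the shortest. Each list was therefore limited to its strongest peaks, at the length of the shortest list of its lane, and both the limited and the full lists are described. Read depth is unknown, since the lists give peaks and not reads, so a missing peak means no call at that list length and not closed chromatin. In the limited lists all 10 macrophage markers had a peak in at least 1 library and summed to 8 to 57 peaks per list, against 0 to 10 for 5 dendritic cell markers, 0 to 4 for 6 neutrophil and for 6 T cell markers, 0 to 3 for 5 stromal, 0 to 2 for 5 erythroid and 0 to 1 for 5 B cell markers. At least 1 library held a peak for 5 of the dendritic cell, 4 of the neutrophil, 3 of the T cell, 2 of the erythroid, 1 of the stromal and 1 of the B cell markers. Among the markers with no peak in any limited list were Cd3e, Cd8a, Pax5, Elane, Ly6g, Col1a1 and Gata1.

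Each peak was assigned to the nearest protein-coding start site within 100 kb, and distances below are from a region's centre to that site, negative upstream. The 9 genes received 213 peaks over the 22 limited lists and 442 over the full lists. Aim2 held 105 of the 213, with 3 to 7 peaks per limited list and a peak in all 22. Ifi207 had peaks in 19 limited lists, Ifi211 in 19, Mndal in 12, Ifi204 in 10 and Ifi209 in 9. Ifi205, Ifi202b and Ifi203 had peaks in 4, 3 and 2 of them. In the full lists 73 separate regions were called at the members, of which 31 came from 1 animal alone, and 30 of those 31 were in the long lists of BTBR animal 2. Only 2 regions were called in all 22 libraries, and both belonged to Aim2. The 4 other p200 genes between the outermost members were sparse, with peaks in 7 full lists for Ifi206, 5 for Ifi208, 4 for Ifi214 and 3 for Ifi213.

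**Figure D1:**
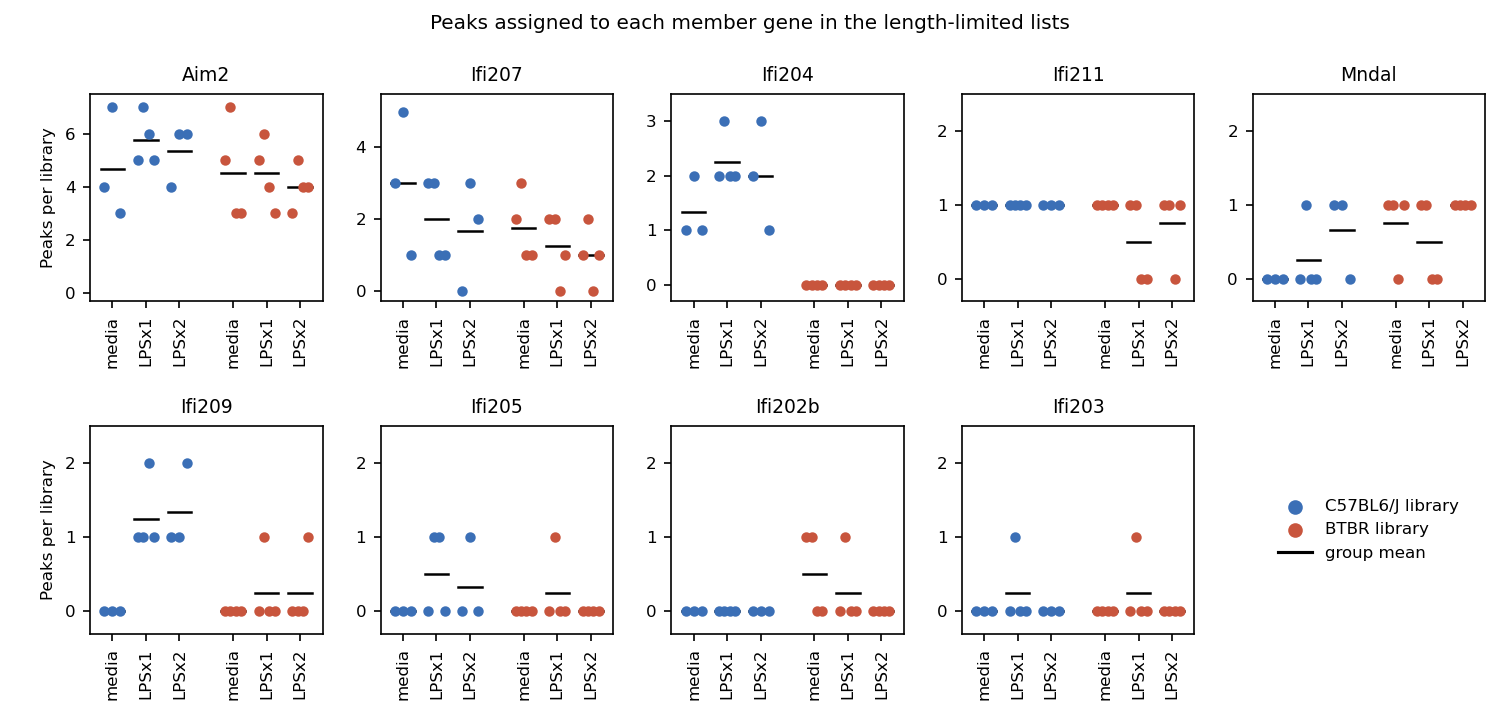
Number of peaks assigned to each of the 9 member genes in each length-limited list, by strain and treatment (points, libraries; lines, group means). Ifi204 has 1 to 3 peaks in each C57BL6/J library and 0 in each BTBR library, while Ifi209 has 0 in all 3 C57BL6/J media libraries and 1 or 2 in all 7 C57BL6/J LPS libraries.

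Across all genes the test was limma on peak numbers with the lane as a covariate, over the 9134 genes that averaged 0.5 peaks or more per list. Of the 9 members, 6 reached that mean (Aim2, Ifi204, Ifi207, Ifi209, Ifi211 and Mndal) and 3 did not. Ifi204 reached it through C57BL6/J alone and Ifi209 through LPS libraries alone, so these had to differ in that direction to be tested. Mndal averaged 0.75 peaks in BTBR and 0.3 in C57BL6/J, so BTBR carried it past 0.5. By treatment Mndal averaged 0.857 with LPSx2, 0.429 in media and 0.375 with LPSx1. The counts and differences of Ifi204, Ifi209 and Mndal are therefore given as a description. Between strains, Ifi204 was the 1 member of 6 called lower in BTBR, where 1.18% of all genes tested were lower, and 0 were called higher, where 0.788% of all genes were. The median difference of the 6 was -0.68 peaks and that of all genes 0. That direction held for the limited lists only: with full-length lists 4 of the 6 lay above 0 (Aim2, Ifi209, Ifi211 and Mndal), and their median was 0.464. With LPSx1 or LPSx2 against media, 0 of the 6 were called by limma, beside 5.59% and 6.22% of all genes in either direction. At an unadjusted p under 0.05 stood 2 of the 6 with LPSx1 (Ifi204 and Ifi209), beside 21.7% of all genes, and 3 with LPSx2 (Ifi207, Ifi209 and Mndal), beside 24.5%. LPSx2 against LPSx1 gave 0 calls among the members and 0% of all genes, with 1 member (Mndal) at an unadjusted p under 0.05, beside 4.38% of all genes. The difference between the strains' responses was called for 0 of the 6 members, beside 0.0328% of all genes for LPSx1 and 0.0109% for LPSx2, with 1 member each at an unadjusted p under 0.05 (Ifi204 and Ifi209), beside 5.73% and 6.49% of all genes. Ifi204 had no peak in any BTBR limited list, so its response difference restates its LPSx1 change. Ifi209 entered through LPS libraries alone, so both places in that count are a description.

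To compare positions, peaks of all limited lists were joined into regions, and each library got a rank percent there: 100 for the strongest peak of its list, near 0 for the weakest, and 0 where the list had no peak. Of the 73 member regions, 16 were called in at least 4 limited lists and entered a limma fit over 25482 regions. They comprised 6 within 1 kb of a start site. By the annotation, 6 overlapped an exon, 7 were intronic and 3 intergenic. The other 57 are described from the full lists. For 4 of the 16, all limited-list peaks came from 1 strain, so those regions (Ifi204 -93 bp and -42.6 kb, Ifi209 -8.5 kb and Mndal +3.4 kb) passed the filter through that strain alone. For 2 (Ifi209 -8.5 kb and the Ifi205 promoter) all came from LPS libraries. A region seen in 1 group alone had to differ in that direction to be tested. Aim2 -1.5 kb and the Ifi207 promoter held peaks in 1 and 2 BTBR limited lists, fewer than the 4 needed, so C57BL6/J carried them past the filter. For all of these the difference between the groups concerned is given below as a description with no p-value.

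**Figure D2:**
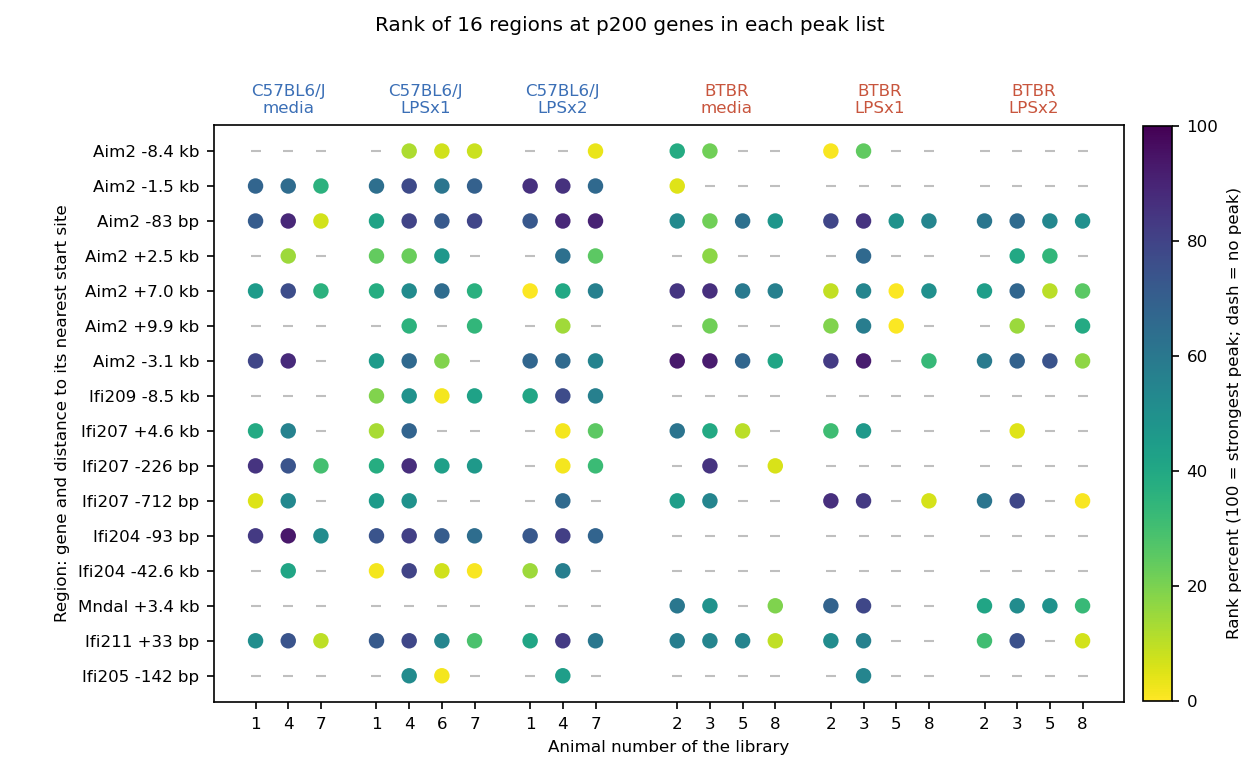
Rank percent of the 16 tested regions (rows, in chromosome order) in each of the 22 length-limited lists (columns, animals within strain and treatment), where colour gives the rank and a dash marks no peak. The Aim2 promoter at -83 bp and the intronic region at +7.0 kb are filled in all 22 lists, Ifi204 -93 bp and Ifi209 -8.5 kb only in C57BL6/J, and Mndal +3.4 kb only in BTBR.

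Between the strains, 4 of the 16 regions ranked lower in BTBR (adjusted p under 0.05; 2.83% of all regions were lower) and 1 ranked higher (1.66% of all regions were higher). The 4 were the Ifi204 promoter, a region 1.5 kb upstream of the main Aim2 start, the Ifi207 promoter and a region 8.5 kb upstream of Ifi209, and the 1 was an intronic region of Mndal. All 5 passed the filter through 1 strain. Ifi204, Ifi209 and Mndal had limited-list peaks in that strain alone, and Aim2 -1.5 kb and Ifi207 were in too few BTBR lists to pass without C57BL6/J. The counts therefore describe the regions and are not support for a difference. Libraries of 1 animal were fitted with a consensus correlation that came out slightly negative (-0.0351), which narrows the strain errors. On animal means (8 animals, an alternative chosen after seeing the data), the calls at Ifi204 and Aim2 -1.5 kb were kept and the other 3 were not. With full-length lists the Ifi204 promoter was the only member region called between the strains. There too it passed the filter through C57BL6/J, since 3 BTBR lists held it and 4 were needed. These alternatives are therefore a description as well.

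**Figure D3:**
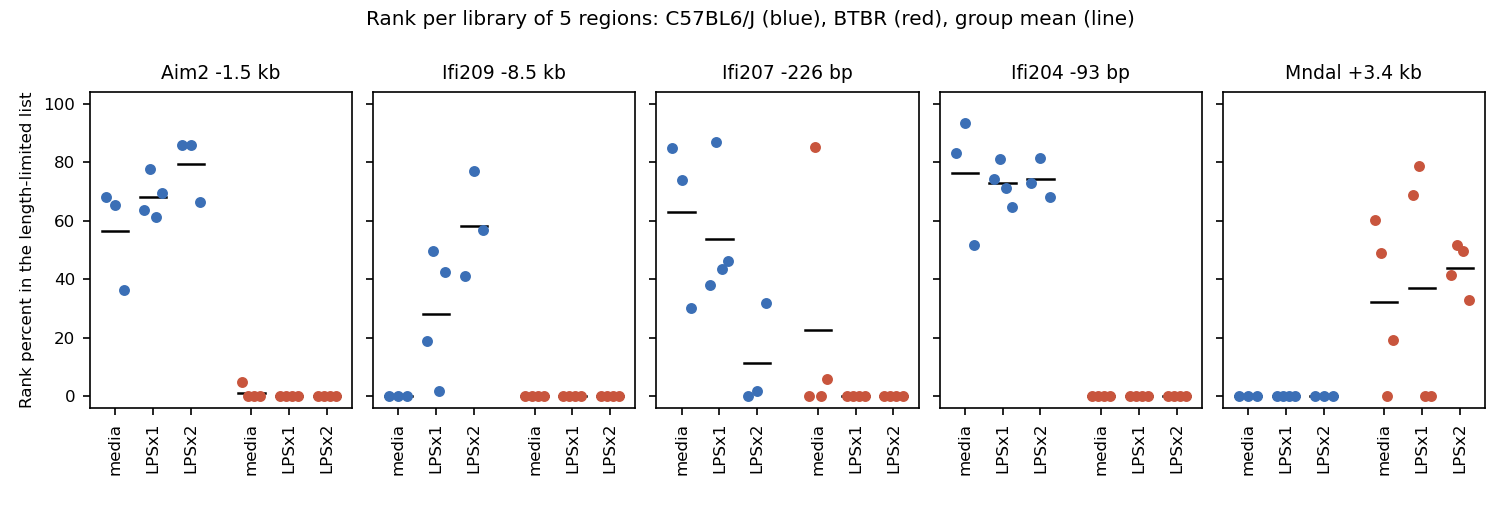
Rank percent per library of the 5 regions called between the strains (points, libraries; lines, group means; C57BL6/J blue, BTBR red; 0 where the limited list holds no peak). At Ifi204 -93 bp and Aim2 -1.5 kb the lowest C57BL6/J library, at 51.7 and 36.3, lies above every BTBR library.

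Aim2, the cytosolic DNA sensor, lies at chr1:173350879-173466040 on the plus strand (mm10) and has 4 annotated start sites. A region at its main promoter (chr1:173420378-173420653, centred 83 bp upstream) was open in all 22 limited lists. Its rank percent was 71.1, 88.7 and 6.97 in C57BL6/J media, 41.8, 79.9, 72.4 and 79.3 in C57BL6/J LPSx1, and 72.9, 89.0 and 90.3 in C57BL6/J LPSx2. In BTBR it was 52.4, 21.5, 63.6 and 47.5 in media, 79.0, 84.9, 49.6 and 54.6 with LPSx1, and 60.7, 65.3, 53.6 and 50.0 with LPSx2. The groups overlapped, and in 6 of 7 animals the LPSx2 rank was above the media rank, against 4 of 7 for LPSx1. None of the contrasts passed for this region (adjusted p = 0.142 for LPSx2 and 0.414 between strains, limma).

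The intronic region 7.0 kb after the main start (chr1:173427409-173427710) was the other one present in all 22 lists. Its rank was lower than in media in 6 of 7 animals with LPSx1 and in 6 of 7 with LPSx2, with fitted differences of -22.0 ± 10.2 and -27.6 ± 10.5 rank percent (SE), and neither passed (adjusted p = 0.124 and 0.0546, limma). A second intronic region (chr1:173451734-173452042), 3.1 kb upstream of a start site inside the gene, was in 19 limited and 21 full lists, missing only from BTBR animal 5 with LPSx1. It reached 93.3 in BTBR media. The remaining tested Aim2 regions, at -8.4, +2.5 and +9.9 kb, were in 8, 10 and 9 limited lists and in both strains.

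A region 1.5 kb upstream of the main Aim2 start (chr1:173418914-173419261, overlapping an exon of a transcript that begins farther upstream) separated the strains. Its rank percent was 67.9, 65.2 and 36.3 in C57BL6/J media, 63.7, 77.6, 61.2 and 69.4 with LPSx1, and 86.0, 85.8 and 66.4 with LPSx2. In BTBR it was 4.73 in the media library of animal 2 and 0 in the other 11. No BTBR library came near the lowest C57BL6/J one. By lane, the animal means were 72.5 against 1.58, 76.2 against 0, 61.2 against 0 and 57.3 against 0. The fitted BTBR difference was -67.2 ± 6.86 rank percent (SE), a description, since the region passed the filter through C57BL6/J. Treatment differences at this region did not pass (adjusted p = 0.677 for LPSx1 and 0.38 for LPSx2). In the full lists the region was called in 10 of 10 C57BL6/J libraries and in 6 of 12 BTBR libraries, all 6 from animals 2 and 3, at 9.21 to 82.9 rank percent, and the difference was not called there (adjusted p = 0.719, limma). The assembly held no other alignable copy of this region.

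The 2 sequences below, read from the reference on the plus strand outside exons, show the promoter-proximal Aim2 region shared by all libraries and the upstream one that ranked lower in BTBR. Capitals mark matches to any of 6 motifs searched on both strands, here PU.1 (GAGGAAGT) at the promoter, and the upstream stretch has no match.
Aim2 promoter, chr1:173420378-173420570: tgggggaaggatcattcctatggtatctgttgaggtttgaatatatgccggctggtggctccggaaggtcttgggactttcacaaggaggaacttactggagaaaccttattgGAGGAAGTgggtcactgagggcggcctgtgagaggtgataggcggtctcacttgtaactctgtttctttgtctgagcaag
Aim2 upstream region, chr1:173418914-173419195: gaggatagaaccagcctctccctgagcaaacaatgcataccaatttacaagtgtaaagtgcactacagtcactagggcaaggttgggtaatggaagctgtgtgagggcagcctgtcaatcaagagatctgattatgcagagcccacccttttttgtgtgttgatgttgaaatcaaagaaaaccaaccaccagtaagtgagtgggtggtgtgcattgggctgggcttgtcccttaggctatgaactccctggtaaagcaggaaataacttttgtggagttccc

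Ifi204 encodes p204, a p200 protein implicated in sensing DNA upstream of STING, and lies at chr1:173747293-173766943 on the minus strand. Its promoter region (chr1:173766863-173767161, overlapping the first exon) was called in each C57BL6/J library and in no limited BTBR list. The rank percent was 83.2, 93.4 and 51.7 in C57BL6/J media, 74.1, 80.9, 71.1 and 64.8 with LPSx1, and 72.9, 81.3 and 68.1 with LPSx2, against 0 in all 12 BTBR libraries. The strains did not overlap in any lane, and within C57BL6/J the treatments overlapped. The BTBR difference was -74.2 ± 6.92 rank percent (SE). LPSx1 and LPSx2 differences were -1.63 and -1.01 rank percent (adjusted p = 0.915 and 0.948). In the full lists the 3 libraries of BTBR animal 2 held a peak there, at 50.8, 48.9 and 50.5 rank percent, and the 10 C57BL6/J libraries ranked at 69.9 to 93.4. At that list length the difference was -71.4 ± 15.3 (SE) and was called, and with the 2 left-out lists added it was -58.7 and was not called. These differences are a description, since C57BL6/J carried the region past the filter there too.

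Peak numbers gave the same picture for Ifi204. C57BL6/J libraries held 1, 2 and 1 peaks in media, 2, 3, 2 and 2 with LPSx1 and 2, 3 and 1 with LPSx2, and the 12 BTBR libraries held 0. The fitted difference was -1.85 ± 0.165 peaks (SE) in the limited lists. It was -1.57 peaks with full-length lists and was not called there (limma adjusted p = 0.769), nor on animal means. With the animal as a block, Ifi204 also passed for LPSx1 against media (adjusted p = 0.0364; 0.469 ± 0.2 peaks and adjusted p = 0.188 without the block). A pair of upstream intergenic regions was seen in C57BL6/J alone: 36.7 kb upstream in 7 full lists, the 7 LPS libraries, and 42.6 kb upstream in 8, those 7 and the media library of animal 4. Neither was in a BTBR list. The farther one was tested and was not called between strains (-19.4 ± 6.71 rank percent, SE). Its sequence is repeated: it had 6418 alignments elsewhere in the assembly. The best of them, at 98.3% identity over 235 bp, lay 6.6 kb from an Ifi203 start site.

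Ifi207, whose encoded protein belongs to the same family, lies at chr1:173723427-173741747 on the minus strand and had 38 peaks over the limited lists, second to Aim2 with 105. At its promoter (chr1:173741687-173742259) the rank percent in C57BL6/J was 84.9, 73.9 and 30.0 in media, 38.0, 86.8, 43.4 and 46.3 with LPSx1, and 0, 1.89 and 31.8 with LPSx2. In BTBR media the 4 libraries stood at 0, 85.0, 0 and 5.95, and the 8 LPS libraries at 0. The strains overlapped in media only through animal 3, and with LPSx2 through a C57BL6/J library at 0. The BTBR difference was -33.2 ± 8.56 rank percent (SE), a description, since the region passed the filter through C57BL6/J. It was not called on animal means, without animal 1 or without animal 2. This promoter was also the 1 member region of 16 that ranked lower with LPSx2 than with media (2930 of all 25482 regions did, 11.5%), with a difference of -37.2 ± 10.9 rank percent (SE; adjusted p = 0.015), and it ranked lower in 4 of 7 animals and higher in 1. That difference did not pass in 11 of 17 alternatives, among them those without animal 1, 3, 4 or 8 (adjusted p = 0.103, 0.0757, 0.0869 and 0.131), and it was -0.0699 rank percent without the lists that hold overlapping duplicate peaks. In the full lists the region was called in 10 of 10 C57BL6/J and 7 of 12 BTBR libraries. A separate region 712 bp upstream was in 5 C57BL6/J and 8 BTBR limited lists and did not pass between the strains (20.1 ± 7.78, SE; adjusted p = 0.147).

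Ifi209 (Pyhin1) lies at chr1:173630917-173647928 on the plus strand. An intergenic region 8.5 kb upstream of it (chr1:173622284-173622563) was called in all 7 LPS libraries of C57BL6/J, in 0 of the 3 media libraries and in 0 of the 12 BTBR libraries, in limited and full lists alike. The rank percent was 18.8, 49.5, 1.82 and 42.5 with LPSx1 (animals 1, 4, 6 and 7) and 41.2, 77.1 and 56.7 with LPSx2 (animals 1, 4 and 7). All 3 C57BL6/J animals with a media list rose from 0 in both treatments. It was the 1 member region of 16 ranked higher with LPSx2 than with media (9.98% of all regions were), by 29.2 ± 7.82 rank percent averaged over the strains (SE). This region entered the fit through the C57BL6/J LPS libraries alone, so its LPS and strain differences are a description. For LPSx1 the difference was 15.2 rank percent and was not called. Between strains the difference was -27.6 ± 6.15 (SE), and it was not called on animal means or without animal 3.

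The difference between the strains' LPSx2 responses at this region was -58.3 ± 15.6 rank percent (SE), and it was not called over all regions by limma. Since all BTBR values there were 0, it restates the C57BL6/J change that the average over the strains holds at a smaller size. Of the 16 regions 0 were called for that difference, beside 0.0157% of all regions, and 0 for LPSx1, beside 0.00392%, with 1 member region each at an unadjusted p under 0.05 (8.79% and 9.16% of all regions). In the full LPS lists of BTBR animal 2, peaks lay on either side of the region without overlapping it, centred 8979 and 8157 bp upstream of the start. Peak numbers at Ifi209 went the same way: 0 in the C57BL6/J media libraries, 1, 1, 2 and 1 with LPSx1 and 1, 1 and 2 with LPSx2, against 1 peak in BTBR animal 3 with LPSx1, 1 in animal 8 with LPSx2 and 0 in the other 10. The peak number differences were 0.74 ± 0.229 with LPSx1 and 0.792 ± 0.235 with LPSx2 (SE), and neither was called.

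Mndal, a PYHIN gene whose product has been linked to growth restraint, lies at chr1:173849126-173942491 on the minus strand. A region in its intron, 3.4 kb after a start site (chr1:173872355-173872592), was the 1 member region ranked higher in BTBR. The BTBR rank percent was 60.2, 48.9, 0 and 19.3 in media, 68.6, 78.8, 0 and 0 with LPSx1, and 41.4, 51.8, 49.5 and 32.8 with LPSx2 (animals 2, 3, 5 and 8), and it was 0 in all 10 C57BL6/J libraries. Each BTBR animal had the region in at least 1 library, with animal means of 56.8, 59.8, 16.5 and 17.4. The BTBR difference was 41.3 ± 7.94 (SE), and it was not called on animal means or without animal 4. In the full lists the count was again 9 BTBR and 0 C57BL6/J libraries. By peak number Mndal differed by 0.531 ± 0.141 (SE) and was not called. That difference is a description, since BTBR carried the gene past the filter. The region 4.9 kb after the start went the other way in the full lists, in 6 C57BL6/J libraries, all with LPS, and in 2 of BTBR.

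Ifi211 (chr1:173896345-173913046, minus strand) had a single region in the limited lists, at its promoter, in all 10 C57BL6/J libraries and in 9 of 12 BTBR libraries, missing from animal 5 with both LPS treatments and from animal 8 with LPSx1. The full lists added 4 regions, each in 1 or 2 BTBR libraries. It did not pass between the strains (-19.1 ± 7.89 rank percent, SE; adjusted p = 0.178). Ifi205 (chr1:174011998-174031810, minus strand), whose product p205 has been linked to Pycard expression, had its promoter region only in LPS libraries: 7 of 7 of C57BL6/J and 4 of 8 of BTBR (animals 2 and 3) in the full lists, and 0 of 7 media libraries. In the limited lists that fell to 4 libraries. The LPSx1 and LPSx2 differences were 14.6 ± 6.88 and 7.38 ± 7.07 rank percent (SE) in the limited lists and 48.2 ± 13.1 and 28.0 ± 13.5 in the full lists. That promoter passed the filter through LPS libraries alone in both, so these differences are a description. Ifi202b (chr1:173962568-173982744, minus strand), which encodes an inhibitor of AIM2 that lacks a pyrin domain, was called only in BTBR: an intronic region 4.9 kb after its start was in all 6 full lists of animals 2 and 3 and in no C57BL6/J list. Animals 5 and 8 lacked it, and the mean number of peaks was too low for the test. Ifi203 (chr1:173920407-173942672, minus strand) had peaks in 11 full lists, and its most frequent region, 19.0 kb upstream, was in 8 of them, 7 from BTBR.

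**Figure D4:**
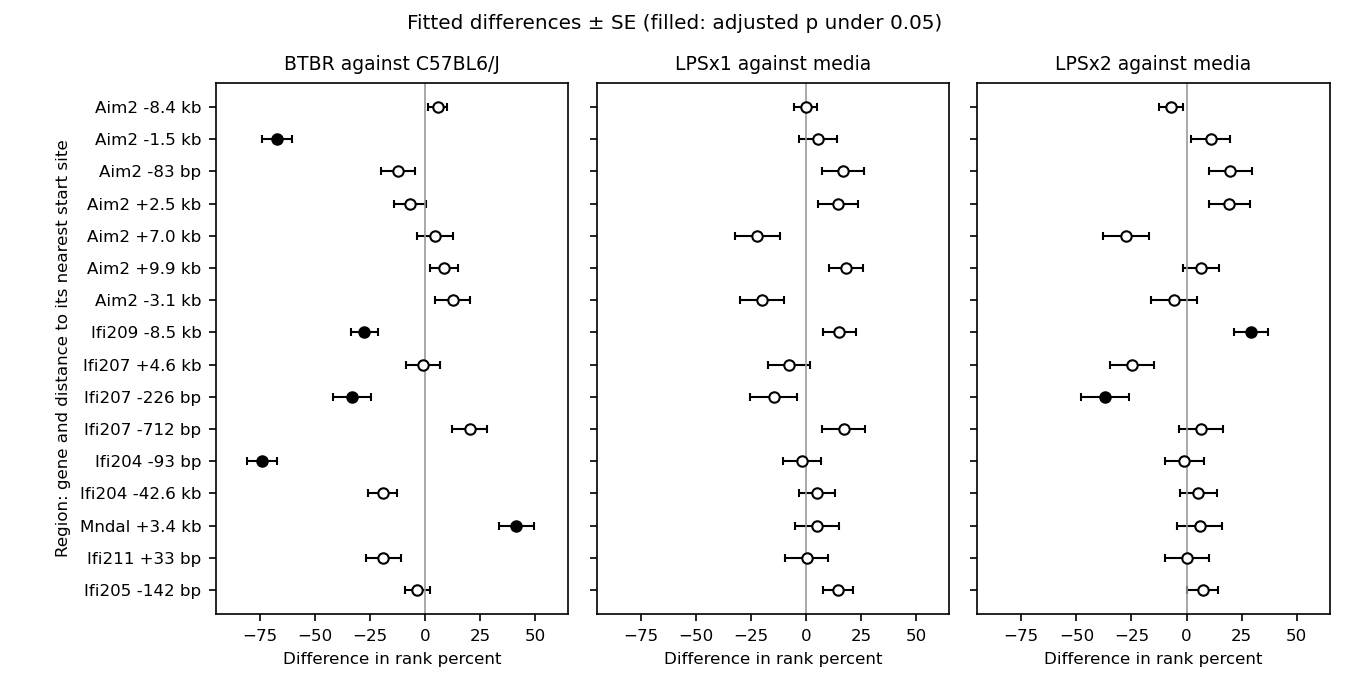
Fitted differences in rank percent of the 16 regions between strains (left), with LPSx1 (middle) and with LPSx2 (right), each with its SE; filled points have an adjusted p under 0.05. The strain panel holds the largest differences, down to -74.2 at Ifi204 -93 bp and up to 41.3 at Mndal +3.4 kb.

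With LPSx1 against media, 0 of the 16 regions were called in either direction by limma (8.76% of all regions were higher and 9.68% lower), and 3 stood at an unadjusted p under 0.05, beside 33.9% of all regions: Aim2 +9.9 kb and the Ifi205 promoter, higher, and Aim2 +7.0 kb, lower. The Ifi205 promoter entered through LPS libraries alone, so its place in that count is a description. LPSx2 against LPSx1 gave 0 calls among the 16 and 0% of all regions, with 1 member region, the Ifi207 promoter, at an unadjusted p under 0.05, beside 5.36% of all regions.

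The cluster is made of gene copies, and 4 of the 5 regions called between the strains had a close copy at another p200 gene in the reference. The Ifi204 promoter matched the Ifi211 promoter at 96% identity over 299 bp, with 63 bp as the longest identical stretch. The Ifi211 promoter was called in 9 BTBR libraries, and the Ifi204 promoter in 3, all 3 in full lists. The Ifi209 -8.5 kb region matched a place 14.9 kb upstream of Ifi214 at 97.5% over 280 bp. That copy was called in 4 BTBR full lists (animals 2 and 3) and in 0 of C57BL6/J, the opposite of the Ifi209 region. The Mndal +3.4 kb region matched Ifi203 7.8 kb after its start at 96.2% over 237 bp, with an identical stretch of 125 bp. That copy was called in 4 C57BL6/J and 3 BTBR full lists. The Ifi207 promoter matched that of Ifi211 at 86.1% over 541 bp. All reads were aligned to mm10, a C57BL/6J assembly, and the part of strain sequence differences or of read placement between copies in these results was not tested.

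The sequences of these regions, outside exons and on the strand of each gene, show what the copies share. Capitals again mark motif matches: the ISRE core GAAANNGAA in the promoters of Ifi204, Ifi211, Ifi205 and Ifi207 and in the Ifi209 upstream region, and C/EBP (TTGCNNAA) in the latter.
Ifi204 promoter, chr1:173766944-173767161: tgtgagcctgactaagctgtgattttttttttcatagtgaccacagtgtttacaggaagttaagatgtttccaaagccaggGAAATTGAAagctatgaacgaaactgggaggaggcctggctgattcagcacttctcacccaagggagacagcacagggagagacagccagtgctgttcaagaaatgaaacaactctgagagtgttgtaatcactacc
Ifi211 promoter, chr1:173913047-173913213: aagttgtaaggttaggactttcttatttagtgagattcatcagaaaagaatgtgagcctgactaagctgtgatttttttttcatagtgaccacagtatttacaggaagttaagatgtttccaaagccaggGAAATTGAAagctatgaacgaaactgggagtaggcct
Ifi205 promoter, chr1:174031811-174032044: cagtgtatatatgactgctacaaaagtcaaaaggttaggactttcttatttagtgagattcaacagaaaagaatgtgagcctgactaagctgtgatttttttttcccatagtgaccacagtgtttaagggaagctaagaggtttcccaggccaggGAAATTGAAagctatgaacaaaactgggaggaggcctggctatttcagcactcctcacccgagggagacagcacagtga
Ifi207 promoter, chr1:173741748-173742047: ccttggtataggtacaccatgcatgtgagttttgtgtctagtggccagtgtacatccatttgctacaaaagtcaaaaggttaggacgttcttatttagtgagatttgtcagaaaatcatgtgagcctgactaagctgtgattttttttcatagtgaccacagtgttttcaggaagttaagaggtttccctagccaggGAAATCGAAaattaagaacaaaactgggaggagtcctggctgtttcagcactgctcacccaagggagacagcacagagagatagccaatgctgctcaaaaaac
Ifi209 upstream region, chr1:173622284-173622563: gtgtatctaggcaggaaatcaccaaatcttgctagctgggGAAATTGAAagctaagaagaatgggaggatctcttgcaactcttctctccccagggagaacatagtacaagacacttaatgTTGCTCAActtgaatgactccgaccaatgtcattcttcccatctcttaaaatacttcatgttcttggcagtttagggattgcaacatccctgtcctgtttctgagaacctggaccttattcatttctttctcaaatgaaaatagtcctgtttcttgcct
Mndal intronic region, chr1:173872355-173872592: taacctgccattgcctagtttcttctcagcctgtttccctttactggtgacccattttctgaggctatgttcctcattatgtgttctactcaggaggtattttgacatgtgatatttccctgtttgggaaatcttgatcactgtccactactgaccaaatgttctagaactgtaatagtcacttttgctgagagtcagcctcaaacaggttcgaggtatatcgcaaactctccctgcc

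In 201 bp windows around the region centres, read on both strands, the ISRE core GAAANNGAA was found in 6 of the 16 member regions and in 6.7% of all 25482 regions. The 6 were the promoters of Ifi204, Ifi211 and Ifi205, the Ifi209 upstream region and the Aim2 regions at -8.4 and +9.9 kb, and the 3 promoters align to one another. The Ifi207 promoter holds the core in the stretch printed above but outside its central window. PU.1 (GAGGAAGT) was in 3 of 16 against 9.33% of all regions. The composite GGAANNGAA was in 2 against 9.15%, AP-1 (TGACTCA) in 2 against 16.9%, C/EBP (TTGCNNAA) in 2 against 12.2%, and STAT (TTCCNGGAA) in 0 against 0.804%. The ISRE core can overlap the composite, which differs from it by 1 letter.

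Among 21 partner genes of DNA sensing and inflammasomes, 17 were tested. Zbp1, a sensor of left-handed nucleic acid, had more peaks with LPSx1, with 0.143 ± 0.378 in media and 1.12 ± 0.641 with LPSx1 (SD, n = 7 and 8). The fitted difference was 0.958 ± 0.25 (SE). Its media mean lies below the 0.5 needed, so LPS libraries carried it past the filter and its difference is a description. Casp1, the protease of the AIM2 inflammasome, lost peaks with LPSx1 and with LPSx2, with differences of -0.62 ± 0.168 and -0.708 ± 0.173 (SE; adjusted p = 0.0464 and 0.0295). Nlrp1b, another inflammasome sensor, had 2.5 ± 0.527 peaks in C57BL6/J (SD, n = 10) and 0 in all 12 BTBR libraries, so it too entered the test through C57BL6/J alone. The other 14 tested partners did not pass in these 3 contrasts, and Pycard was among the 4 with too few peaks to be tested. Of all genes, 5.59% were called with LPSx1 and 6.22% with LPSx2 in either direction, and 1.18% were called lower in BTBR. An unadjusted p under 0.05 was reached by 6 of the 17 with LPSx1, 7 with LPSx2 and 6 between the strains. The shares of all genes there were 21.7%, 24.5% and 14.8%. Of 17 genes of interferon signalling, 16 were tested and 0 were called in any contrast by limma. At an unadjusted p under 0.05 stood 4 for LPSx1, 4 for LPSx2 and 3 between the strains, beside 21.7%, 24.5% and 14.8% of all genes. Among the 27 protein-coding genes within 500 kb outside the cluster only 2 were tested and 0 were called. Of the 3 regions tested there, 2 ranked lower in BTBR, beside 2.83% of all regions. They lay next to Ifi205, at the olfactory receptor genes Olfr433 (-33.6, entered through C57BL6/J alone) and Olfr432 (-48.1, limma adjusted p = 0.000154).

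Summed over the 9 genes in the limited lists, the C57BL6/J total was 10.0 ± 4.58 peaks in media, 13.2 ± 3.4 after LPSx1 and 12.3 ± 3.51 after LPSx2 (SD; n = 3, 4 and 3), and the BTBR total 8.5 ± 3.7, 7.75 ± 4.79 and 7.0 ± 1.83 (SD, n = 4 each). The ranges overlapped, with 6 to 18 peaks in C57BL6/J and 4 to 14 in BTBR. In the full lists the order of the means turned, with 18.4 ± 6.0 peaks in C57BL6/J (SD, n = 10; median 19.5, 9 to 25) and 21.5 ± 21.3 in BTBR (SD, n = 12; median 14.0, 4 to 67). The genes outside the cluster whose peak numbers followed this sum most closely, lane means removed, were Cetn4, Pla2g4a, Iqgap2, Fhdc1 and Plekhg1 (Pearson r of 0.84 to 0.811 over the 22 libraries, which share lanes and animals).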

How the data were processed

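ATAC-seq peak lists of 24 libraries (strain by treatment, as above) were analysed, 1 list per library. Per the labels' protocols, libraries were sequenced as paired ends in 4 lanes, and the submitters' processing notes name Trimmomatic 0.38, SAMtools 1.8, Picard 2.18.4, HOMER, bedtools and the build mm10. The aligner is not given in the sources used here. The deposited files hold peaks 201 bp wide with a score per peak that the authors assigned in each library, and here the score served only to order the peaks of each list. Read depth is unknown, so precision is limited by the number of libraries and the list length.

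Overlapping peaks were merged to the highest score, which mattered in 7 lists where 66.7% to 87.4% of peaks overlapped another (at most 0.213% elsewhere). Lists under 5000 peaks were left out, and the rest were limited to 11349, 22037, 16045 or 13957 peaks by lane. Peaks went to the nearest GENCODE protein-coding start within 100 kb. limma 3.58.1 (R 4.3.3) was fitted with a trend and robust variances to 6 groups plus lane, over genes averaging 0.5 peaks or more, or regions in at least 4 lists, with Benjamini-Hochberg adjustment over all of them and a threshold of 0.05. Strain contrasts used a consensus correlation of libraries of 1 animal. The adjusted p-values in the text come from these fits. Whether the labels' replicate numbers mark separate animals is an assumption. Within a number, deviations from group means correlated at a median of 0.518 (lowest 0.201, 21 pairs), and at 0.00698 once lane means were also removed (0.00608 between different numbers).

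All 9 genes were named in every result where they had values, and other genes where they passed, lie between the members or were the 5 most alike. The cell type markers without a peak, Pycard and the neighbouring olfactory receptor genes were named outside that rule, after their values were seen. Values of some single genes of the marker and partner lists are not reported here. Members and lists were chosen with earlier results of these data known. On simulated data with 100 changed features per contrast, 54% (genes, between strains), 21% (genes, LPSx2), 96% and 90% (regions) were recovered, among 9134 genes and 25482 regions, and 10%, 8.7%, 9.43% and 1.1% of the calls were false. The planted changes were large: several added peaks per gene, or regions in nearly all lists of a group and nearly none of the others. Libraries were drawn independently, with no animal or lane effect, so these rates do not give the power or false-call rate in the real lists. Copies were searched with BLAST 2.17.0, and sequences were read from GRCm38.p6, the assembly of mm10.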

Additional observations from a re-analysis of the deposited data

Results flagged for a closer look

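Within groups of 4 libraries, 26 sets of values were checked for 1 library far from the others, and 9 held one. Chance alone flags about 1 in 20 such groups, and peak numbers of 0, 1 or 2 flag easily when 3 libraries tie. BTBR animal 2 in media ranked at 4.73 at the region 1.5 kb upstream of Aim2, where the other 3 were at 0. BTBR animal 3 in media ranked at 85.0 at the Ifi207 promoter, against 0 to 5.95 in the others. C57BL6/J animal 4 with LPSx1 had 3 peaks at Ifi204 where the others had 2. At Ifi209, animal 3 with LPSx1 and animal 8 with LPSx2 each had 1 peak where the other BTBR libraries had 0, and C57BL6/J animal 6 with LPSx1 had 2 where the others had 1. BTBR animal 5 had 0 peaks at Ifi211 with LPSx2 and 0 at Mndal in media, where the others had 1, and C57BL6/J animal 4 with LPSx1 had 1 at Mndal where the others had 0.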

How the results depend on the processing

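Counts of called members were small and moved with list length. They include genes and regions that entered the test through 1 strain or through LPS libraries, so they are a description. For genes between strains (1 in the fit described), the count was 0 with full-length lists, with all 24 libraries, on animal means, and for peaks within 25 kb of a start or distal peaks alone (there Ifi204 averaged too few peaks to be tested), and 2 without the filter on low peak numbers; with and without the replicate block it was 1. For genes with LPSx2 (0), it was 1 without the filter and 1 with overlapping peaks kept. With the replicate block, genes called for LPSx1 went from 0 to 1. For regions between strains (5), it was 1 with full-length lists, 0 with all 24 libraries, and 2 in the stronger 50% of each list, without the lane covariate or on animal means. Leaving out single animals gave 4 to 7. For regions with LPSx2 (2), it was 1 with full-length lists, an overlap of more than 100 bp or presence alone, and 0 in the stronger 50%, without the 7 duplicated lists, with all 24 libraries or without the lane covariate. Leaving out single animals gave 1 to 4 (1 without animal 1, 3, 4 or 8, and 4 without animal 7), and the replicate block 3. For regions with LPSx1 (0), it was 1 with full-length lists, all 24 libraries or presence alone. Presence alone also gave 1 region for each strain difference in the response.

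Peak number differences that had not passed changed sign in places. With full-length lists and with all 24 libraries, LPSx1 differences became 1.01 and 1.0 at Ifi207 and 0.479 and 0.5 at Ifi211, LPSx2 differences at Ifi207 became 0.333 and 0.25, and strain differences became 1.51 and 2.42 at Aim2, 0.722 and 0.75 at Ifi209, and 0.206 and 0.333 at Ifi211. All 24 libraries gave 0.0833 at Ifi207 between strains. One length for all lists gave 0.0729 (LPSx1) and 0.0417 (LPSx2) at Ifi211. Without the duplicated lists Mndal was at -0.0994 (LPSx1) and Ifi207 at 0.167 (LPSx2). Leaving out single animals moved Mndal with LPSx1 from -0.0625 (without animal 4) to 0.181, and Aim2 with LPSx2 from -0.5 (without animal 7; -0.167 without 5 or 8) to 0.5. The cause was not tested. List length limits what a missing peak can show.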
